A study of Homo sapiens with 17 samples.

Results

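Lamina-associated domains (LADs) are the stretches of the genome that touch the nuclear lamina, and 244 of the 2048 LADs mapped on chromosomes 1 to 22 and X of IMR90 cells gained a broad cover of H3K4me3 in both forms of senescence studied. They are called shared-gain LADs below. They were selected on the deposited lists themselves: at least 50% of the base pairs of each lay under the H3K4me3 mesas of replicative senescence, and at least 50% under the H3K4me3 mesas of Ras-induced senescence. A mesa is a region where senescent cells carry more of a mark than growing cells, and a canyon is one where they carry less. The H3K4me3 mesas are all broad, at least 500.999 kb long. The H3K27me3 regions reach down to 4.299 kb for mesas (median 52.5 kb) and 7.299 kb for canyons (median 127.9 kb). The rule picked 11.9% of LADs by number and 14.4% of LAD base pairs (265.84 of 1850.3 Mb).

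The lamina is a mesh of lamin filaments under the inner nuclear membrane, and the chromatin held there is mostly silent, poor in genes and late in replication. H3K4me3, trimethylation of lysine 4 on histone H3, normally marks the promoters of active genes in narrow peaks, so wide sheets of it inside lamina-bound chromatin are an unusual state. H3K27me3, trimethylation of lysine 27, is laid down by the Polycomb repressive complex PRC2 and keeps developmental genes silent. Senescence is a lasting arrest of the cell cycle, in which lamin B1 is known to be lost.

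IMR90 is a line of primary human lung fibroblasts. The 17 libraries of chromatin immunoprecipitation followed by sequencing fall into 11 groups. For replicative senescence, proliferating cells at population doubling 24 were set against cells at doubling 87 that had stopped growing and were held for 2 weeks more. For Ras-induced senescence, cells at doubling 15 that carried ER:Ras from a retroviral vector and received 4-hydroxytamoxifen at 100 nM were set against control cells at doubling 15. The labels do not say whether the control cells also carried the construct. Of H3K27me3 there were 4 libraries of proliferating and 2 of senescent cells, of H3 alone 2 and 2 in the replicative and 1 and 1 in the Ras experiment, and of H3K4me3 1 library in each of the 4 states. Lamin B1 was profiled in 1 library, from proliferating cells, so every LAD is a LAD of growing cells at doubling 24, and its state in senescent or Ras-expressing cells was not measured.

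The files hold coordinates (build hg18) and no value per library. A region therefore has no replicate error, the sequencing depth behind it is unknown, and no test between cultures was possible. All differences below are descriptions, with their spread over the 23 chromosomes where that could be given. Neighbouring LADs are not replicates, nor are chromosomes. No annotation of build hg18 was used, so genes are not named. Taken list by list, the 50% threshold was passed by 394 LADs (19.2%) for replicative and by 544 (26.6%) for Ras-induced H3K4me3 mesas. For H3K27me3, it was passed by 295 (14.4%) for mesas and by 817 (39.9%) for canyons. Among LADs past the threshold in only 1 form of senescence, 150 were replicative only and 300 Ras-induced only, and 1354 LADs passed it in neither.

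The cover that chose the shared-gain LADs was usually far above the threshold, but it was lower in longer LADs. Replicative and Ras-induced mesas covered on average 96 and 98.2% of those below 500 kb. At 2 Mb and over they covered 70.3 and 73.1%. Replicative mesas covered a median of 89.7% of a shared-gain LAD (quartiles 73.8 and 99.4%), and Ras-induced mesas a median of 93.4% (quartiles 76.8 and 100%). Replicative mesas covered 56 of the 244 completely and Ras-induced mesas 81. The base pairs under both lists at once made up a median of 83.3% of a shared-gain LAD and as little as 24.1% in the lowest, because the rule asks for each list separately. The nearest member inside the threshold, on chromosome 1 at 46920001 to 50720000, had 56.9% under replicative and 50.1% under Ras-induced mesas, and the next, of 0.98 Mb on chromosome 8, had 89.1% and 50.5%. Just outside it lay a LAD on chromosome 9 at 740001 to 2040000, with 49.9% and 99.5%, and one on chromosome 17 at 27830001 to 30350000, with 49.7% and 90%. Both LADs just outside count as Ras-induced only and were limited by the replicative list, whereas those just inside were nearest the threshold in the Ras-induced list.

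Together the shared-gain LADs held 185 Mb under both H3K4me3 lists, in 324 intervals with a median length of 542.5 kb. That was 69.1% of all LAD base pairs that lay under both lists and 62.2% of all such base pairs on these chromosomes. The longest such interval ran for 1.884 Mb on chromosome 6 from 39116001 to 41000000, inside a LAD of 2.26 Mb, and H3K27me3 mesas covered 88.3% of it. The next was on chromosome 17 at 68886001 to 70476999 (1.591 Mb, 86.1% under H3K27me3 mesas), and the one after that on chromosome 1 at 174670001 to 176090000 (1.42 Mb, 90.1%). Canyons covered none of these 3 intervals.

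Shared-gain LADs were longer than most LADs. Their median length was 820 kb (quartiles 480 and 1300 kb, range 100 kb to 6.48 Mb), against 390 kb for the 1804 other LADs. Replicative-only LADs had a median of 880 kb and Ras-induced-only LADs of 450 kb. The share of LADs that met the rule was 5.8% below 500 kb (63 of 1087), 22% from 500 kb to 1 Mb (90 of 410), 20.6% from 1 to 2 Mb (64 of 311) and 11.2% at 2 Mb and over (27 of 240). Middle lengths thus met the rule most often. Length enters the rule, since a very long LAD needs several mesas to reach 50%. The shortest mesa of either H3K4me3 list measured 500.999 kb, and a LAD under that length can be covered only by a mesa that runs past at least 1 of its edges.

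The 5 longest shared-gain LADs show how differently such domains were filled. The longest, on chromosome X at 46750001 to 53230000 (6.48 Mb), met 5 replicative and 5 Ras-induced mesas, which covered 78.7% and 58.3% of it, while H3K27me3 mesas covered 21.3% and canyons none. The second, on chromosome 5 at 510001 to 6680000 (6.17 Mb), was 94.9% under Ras-induced and 69.8% under replicative mesas, with 75.7% under H3K27me3 mesas. The third was on chromosome X at 149630001 to 154913754 and is the last LAD listed on that chromosome, with 67.8% under H3K27me3 mesas. In these 3 LADs canyons covered at most 1.53%.

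The other two of these LADs were covered by H3K27me3 mesas almost throughout. The LAD on chromosome 2 at 114440001 to 119720000 (5.28 Mb) had 90% under H3K27me3 mesas but 53.4% under replicative and 62.1% under Ras-induced H3K4me3 mesas. The LAD on chromosome 10 at 129030001 to 134070000 (5.04 Mb) had 93.4% under H3K27me3 mesas, with 61.3% and 86.8% for the H3K4me3 lists. In both, H3K27me3 mesas covered more of the LAD than either H3K4me3 list. The lists differ in the sizes they hold, with a shortest region of 4.299 kb for H3K27me3 mesas and 500.999 kb for H3K4me3. Cover therefore does not show which gain was wider.

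H3K27me3 was not used by the rule, and it divided the shared-gain LADs. In 84 of 244 (34.4%) H3K27me3 mesas covered at least 50% of the base pairs, against 14.4% of all LADs and 16.2% of other LADs of similar length. In 52 (21.3%) canyons covered at least 50%, against 39.9% of all LADs and 32.8% of others of similar length. The other 108 (44.3%) passed neither line, against 45.7% of all LADs and 51% of others of similar length. In 25 (10.2%) no base pair of either H3K27me3 list was present, against 16.4% of all LADs and 13.4% of others of similar length. The exact 95% binomial intervals of the first 2 shares were 28.5 to 40.8% and 16.3 to 27%, and they cover the counting of regions only. Gain of H3K4me3 in both forms of senescence was thus listed beside gain, loss and no called change of H3K27me3.

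For each shared-gain LAD, the LADs of similar length were all others with a ratio of lengths, the shorter over the longer, of at least 0.8. Between 21 and 327 LADs met this. H3K27me3 mesas covered 33.8% of a shared-gain LAD on average and 17.1% of the others, a difference of 16.7 points. For counts by chromosome, shared-gain LADs were grouped by their chromosome, while the LADs of similar length came from all chromosomes. So grouped, the difference was above 0 on 21 of 23 chromosomes, with a SD of 11.3 points between chromosomes. Chromosomes 11 and 19 were the exceptions. The medians were 21.5% for shared-gain LADs (quartiles 0 and 68.4%) and 0% for the others (quartiles 0 and 22.3%), so the distributions overlapped widely. Canyons covered 23.6% and 34.9%, a difference of -11.4 points. With the same grouping it was negative on 19 of 23 chromosomes, with a SD of 13.3 points. Against LADs of the same chromosome, within a factor of 1.5 in length, the differences were 14.7 points for mesas and -8.39 points for canyons.

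The difference in cover by H3K27me3 mesas grew with length, and that by canyons did not. Below 500 kb, H3K27me3 mesas covered 7.89% of shared-gain LADs and 5.57% of others of similar length, and canyons 52.6% and 55.1%. From 500 kb to 1 Mb the mesa values were 28.5% and 16.1%, and from 1 to 2 Mb they were 53.9% and 23.1%. At 2 Mb and over they were 64.4% and 33.2%, while canyons covered 2.34% and 13.6%. In the shortest class the means differed by 2.32 points for mesas and -2.49 points for canyons. From 1 Mb upward the difference in mesa cover was 30.7 and 31.2 points. Canyons covered 19.5% and 35.3% from 500 kb to 1 Mb and 9.67% and 23.5% from 1 to 2 Mb, so the canyon difference was -15.8, -13.9 and -11.3 points in the 3 longer classes. The SD of mesa cover between single shared-gain LADs was 24.6, 32.5, 33.1 and 30.2 points in the 4 classes. That of canyon cover was 48.4, 33, 21.8 and 9.26 points. The classes were set after the data were seen.

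**Figure D1:**
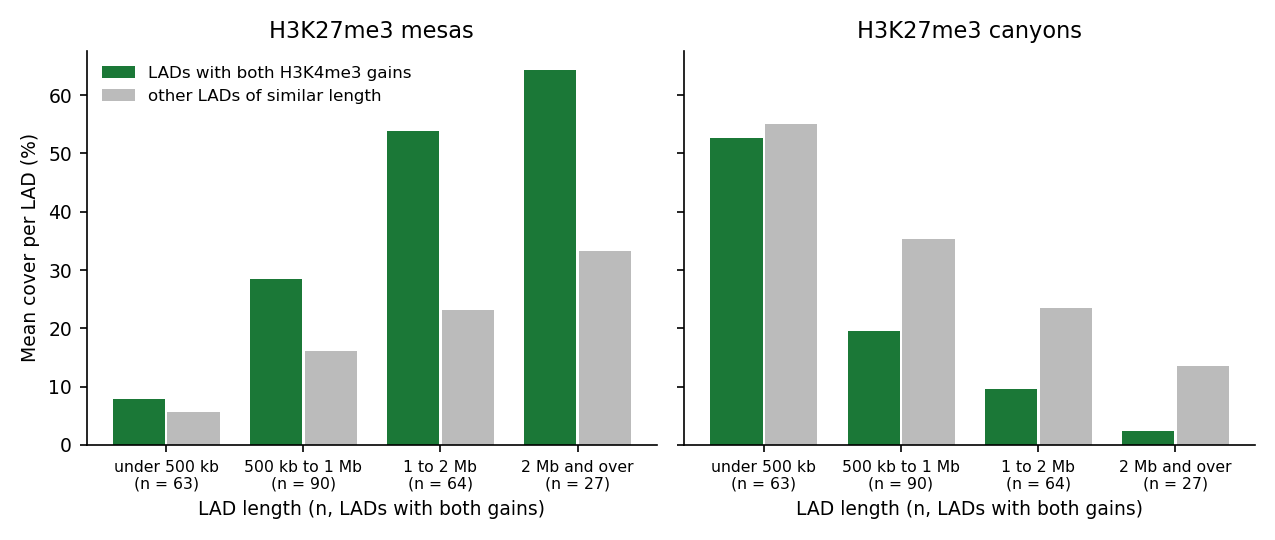
Mean share of base pairs (%) under H3K27me3 mesas (left) and canyons (right) per LAD, in 4 classes of LAD length; green bars are the shared-gain LADs and grey bars other LADs of similar length (ratio of at least 0.8), and n is the number of shared-gain LADs. Mesa cover rises from 7.89% to 64.4% in shared-gain LADs and from 5.57% to 33.2% in the others, and canyon cover falls in both.

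Set against LADs that gained H3K4me3 in 1 form of senescence only, the shared-gain LADs differed less. Here similar length means within a factor of 1.5, on any chromosome. The fewest LADs compared with a shared-gain LAD were 3 replicative-only, 8 Ras-induced-only and 33 of neither kind. H3K27me3 mesas covered 22.7% of base pairs in replicative-only LADs of similar length. That was 11.1 points less than in shared-gain LADs (lower than the shared-gain LADs of 18 of 23 chromosomes, SD 11.7). Ras-induced-only LADs had 28.7%, which was 5.08 points less (lower than those of 17 of 23 chromosomes, SD 11.4). LADs of neither kind had 12.1%, or 21.7 points less, and were lower than the shared-gain LADs of each of the 23 chromosomes. The differences from replicative-only and from Ras-induced-only LADs were smaller than their spread between chromosomes, and that from LADs of neither kind was larger (SD 11.5).

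The long Ras-induced-only LADs came closest. At 2 Mb and over, 20 of 27 shared-gain LADs (74.1%) and 25 of 36 Ras-induced-only LADs (69.4%) were at least 50% under H3K27me3 mesas. Of replicative-only LADs of that length 7 of 19 were (36.8%), and of LADs of neither kind 44 of 158 (27.8%). From 1 to 2 Mb the counts were 35 of 64 for shared-gain LADs (54.7%), 15 of 41 for Ras-induced-only (36.6%) and 10 of 43 for replicative-only LADs (23.3%). H3K27me3 was mapped in replicative senescence only, so for Ras-induced mesas these shares set lists from separate experiments side by side.

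Canyon cover separated the groups differently. It was 21.8% in replicative-only LADs of similar length, 1.77 points below the shared-gain LADs, and 31.6% in Ras-induced-only LADs, 8 points above them. Here too only the shared-gain LADs were grouped by chromosome. The first difference was positive for those of 12 and negative for those of 11 chromosomes. In the second, Ras-induced-only LADs were higher than the shared-gain LADs of 17 of 23. Both were smaller than their spread between chromosomes (SD 13.2 and 12.9 points).

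Among themselves, the shared-gain LADs with gain and with loss of H3K27me3 differed in size and setting. The 84 with H3K27me3 mesas over at least 50% had a median length of 1290 kb and were found on all 23 chromosomes. The 52 with canyons over at least 50% had a median length of 410 kb and were found on 19 chromosomes. The median gap to the next LAD was 245 kb (quartiles 132.5 and 490 kb) beside the first and 440 kb (quartiles 247.5 and 967.5 kb) beside the second. Of the 63 shared-gain LADs below 500 kb, 33 were in the loss group and 4 in the gain group, and of the 27 at 2 Mb and over none and 20 were. In shares, 52.4% of the short ones were in the loss group and 6.35% in the gain group, against 57% and 4.05% of all LADs below 500 kb. At 2 Mb and over 74.1% were in the gain group, against 40% of all LADs of that length. The loss in short shared-gain LADs was therefore near the background of short LADs.

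**Figure D2:**
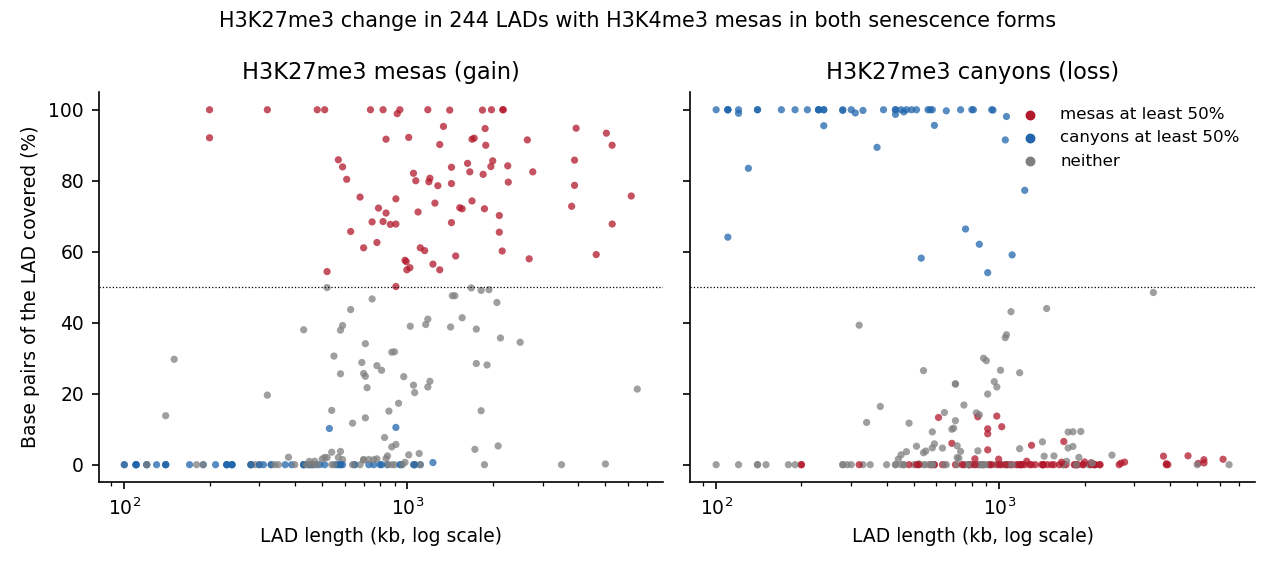
Share of base pairs (%) under H3K27me3 mesas (left) and canyons (right) of each of the 244 shared-gain LADs against its length (kb, log scale); red points have mesas over at least 50%, blue points canyons over at least 50%, grey points neither, and the dotted line is 50%. Blue points lie mostly under 1000 kb and many sit at 100% canyon cover, whereas red points spread over 50 to 100% and include 20 of the 27 LADs of 2 Mb and over.

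Canyon cover was at least 90% in 43 of the 244 shared-gain LADs (17.6%), against 34% of all LADs and 27% of others of similar length. No canyon base pair lay in 112 (45.9%), against 35.8% of all LADs. Mesa cover was at least 90% in 27 (11.1%), against 5.47% of all LADs, and at least 75% in 49 (20.1%), against 9.13%. It was absent from 83 (34%), against 63.7% of all LADs and 53.4% of others of similar length. Shared-gain LADs were thus less often filled by canyons and more often filled by mesas than LADs at large. The low share filled by canyons was not particular to them, since it was 15.3% in replicative-only LADs, not matched by length. Base pairs of both H3K27me3 lists lay in 74 shared-gain LADs (30.3%), against 24.1% of others of similar length and 16.9% of all LADs.

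Long shared-gain LADs ran to both extremes of H3K27me3 mesa cover, some with and some against its rise with length. The longest of at least 90% mesa cover, after the pair on chromosomes 2 and 10 above, was a LAD on chromosome 19 at 32330001 to 36270000 (3.94 Mb), with 94.8%. The longest without any H3K27me3 mesa was on the same chromosome at 39620001 to 43120000 (3.5 Mb). It was 72.8% under replicative and 80.8% under Ras-induced mesas, and 48.5% of it lay under canyons. The next without a mesa were on chromosome X at 71490001 to 73360000 (1.87 Mb), which met no canyon either, and a pair of equal length (1.11 Mb): one on chromosome 7 at 135110001 to 136220000 had 59.1% under canyons, and one on chromosome 11 at 116690001 to 117800000 had none. The longest of the loss group, on chromosome 2 at 236390001 to 237620000 (1.23 Mb), had 77.3% under canyons and was singled out after its values were seen. Within chromosome 19, mesa cover of long shared-gain LADs thus ran from 0 to 94.8%.

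Within shared-gain LADs, cover by H3K27me3 mesas differed between base pairs with and without H3K4me3 mesas. They covered 50.5% of the 185 Mb under both H3K4me3 lists, 57.9% of the 29.77 Mb under Ras-induced mesas alone, 42.6% of the 23.48 Mb under replicative mesas alone and 31.2% of the 27.6 Mb under neither. Averaged over 23 chromosomes, the first and last shares were 49.6 ± 14.5% and 27.9 ± 24.9% (SD). In 164 other LADs of at least 500 kb that met both H3K4me3 lists, the shares in the same order were 61.6%, 57.5%, 42.1% and 36.2%. Length was not held equal between the sets. The shared-gain LADs include 63 below 500 kb, with a mean H3K27me3 mesa cover of 7.89%. In both sets base pairs under neither H3K4me3 list had the lowest share. Over pooled base pairs, the part with the highest share differed between the sets. Averaged over chromosomes, the part under both lists was highest in each. By that measure, Ras-induced mesas alone had 47.5 ± 30.5% in shared-gain LADs. In the other LADs the averages were 58.4 ± 28.5% under both lists and 50.8 ± 32.1% under Ras-induced mesas alone. Canyons covered 12.2% of base pairs both under both lists and under neither in the shared-gain LADs. Position within the LAD was not held equal in these shares. Cover by H3K4me3 mesas and by H3K27me3 mesas was lowest at LAD edges, as given next, and the part of position was not tested.

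All 3 kinds of mesa were most frequent at the centre of shared-gain LADs. Across 5 bins from the edge to the centre, averaged over the left and right side, cover by H3K27me3 mesas was 20.2, 30.1, 37.1, 39.7 and 41.9%, and in others of similar length 10.9, 15.1, 18.2, 20.2 and 21.2%. In both groups the centre had about 2 times the cover of the outermost bin. Canyon cover went from 28.3% in the outermost bin to 21.6% at the centre, against 38.1% and 33% in the others. Cover by replicative mesas, used by the rule, went from 66.7% to 94%, and by Ras-induced mesas from 72.9% to 94.8%.

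Outside the LAD the H3K4me3 lists ran on, while cover by H3K27me3 mesas was low and level. In the first 50 kb beyond the edge, Ras-induced mesas covered 57.9% and replicative mesas 42.2%, and at 450 to 500 kb they covered 34% and 21.4%. Others of similar length had 14.3% and 6.87% in the first 50 kb and 19.8% and 11.7% at 450 to 500 kb. H3K27me3 mesas covered 16.8% of the first 50 kb beside shared-gain LADs and 17% at 450 to 500 kb, against 9.54% and 13% beside the others. Neighbouring LADs took up 50% of base pairs at 450 to 500 kb beside shared-gain LADs and 54.2% beside the others. Since the H3K4me3 cover of the LAD was fixed by the rule and a mesa is at least 500.999 kb long, its cover of the flanks is bound up with the rule.

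**Figure D3:**
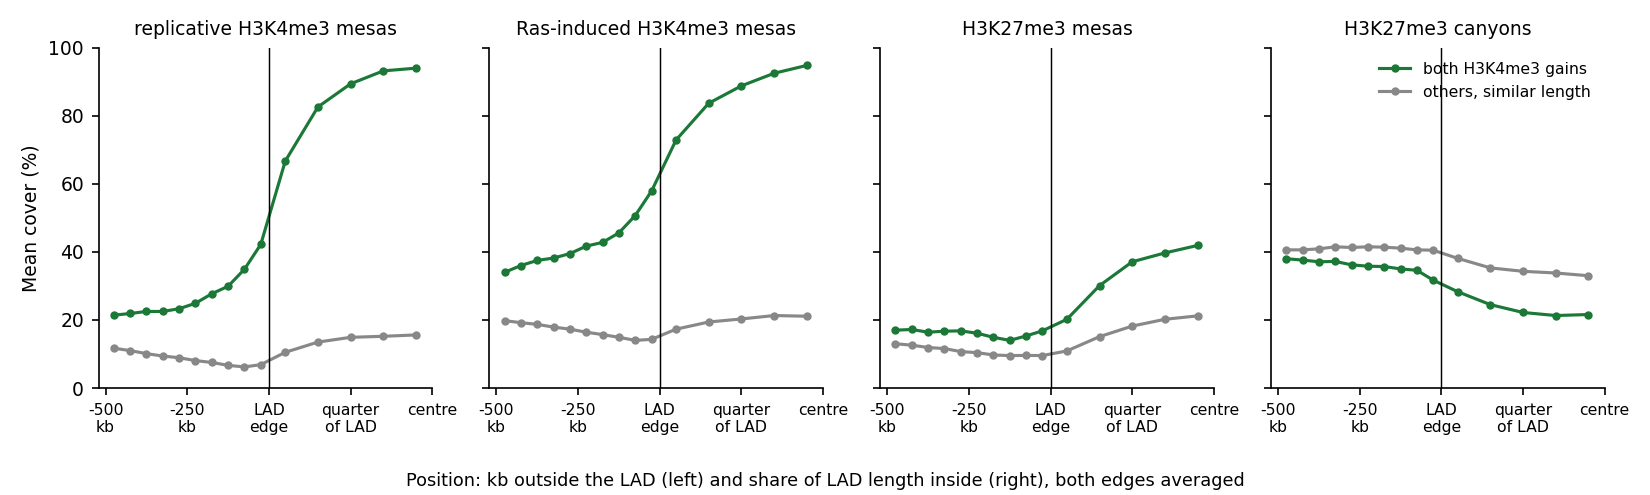
Mean cover (%) by each list across the edges of shared-gain LADs (green) and of other LADs of similar length (grey); the left part of each panel is distance outside the LAD in kb, the right part is relative position from the edge to the centre, and left and right edges are averaged. The H3K4me3 lists fall from 94% (replicative) and 94.8% (Ras-induced) at the centre of shared-gain LADs to 42.2% and 57.9% just outside, and H3K27me3 mesas from 41.9% to 16.8%.

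Few mesa ends lay within 10 kb of an edge of these LADs. Replicative mesas ran past both edges in 61 shared-gain LADs, past 1 edge in 108 and past neither in 75. For Ras-induced mesas the counts were 93, 112 and 39. Where they ran past an edge, it was by a median of 177.5 kb for replicative and 262.5 kb for Ras-induced mesas, and where they fell short, by 63 and 93.5 kb. Of 488 edges, 37 had the outermost replicative mesa end within 10 kb and 23 the outermost Ras-induced mesa. LADs were drawn from lamin B1 windows of 100 kb in steps of 10 kb. These counts therefore cannot decide whether the borders coincide within the width of a window.

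A single mesa usually accounted for the cover. In 202 of 244 shared-gain LADs only 1 replicative mesa was met, and in 202 only 1 Ras-induced mesa, and the most met were 6 and 5. In 47, with a median length of 280 kb, mesas of both lists ran past both edges, and 44 of these lay wholly under both lists. In 25, with a median length of 1160 kb, no mesa of either list passed an edge. The outermost replicative and Ras-induced mesa ends at the same side of a LAD were a median of 114 kb apart (quartiles 33.75 and 308.75 kb), and 159 of 488 such pairs (32.6%) were within 50 kb.

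From the side of the mesas, 282 of 648 replicative mesas (43.5%) and 269 of 806 Ras-induced mesas (33.4%) touched a shared-gain LAD. Of mesa base pairs, 40.5% of the replicative and 29.9% of the Ras-induced list lay inside these LADs. Mesas that touched them had median lengths of 763.5 and 913 kb, against 660 and 686 kb for those that did not. These shares and lengths are bound up with the rule, which chose the LADs by cover of these same mesas. A longer mesa more easily meets a LAD and covers enough of it. Only 25 replicative and 30 Ras-induced mesas touched more than 1 shared-gain LAD.

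Shared-gain LADs were often next to one another. Counted from each side of each shared-gain LAD (485 sides with a neighbour), the neighbour was a shared-gain LAD too on 122 sides (25.2%), against 9.29% beside others of similar length, while the share over all LADs was 11.9%. Ras-induced-only LADs made up 20% against 13.6%, replicative-only LADs 6.8% against 7.85%, and LADs of neither kind 48% against 69.3%. The 122 sides are 61 adjacent pairs seen from both ends, and 110 of the 244 LADs had such a neighbour. A mesa that crosses a gap covers a pair of neighbours at once, and on 26% of the sides of shared-gain LADs a mesa was shared with the neighbour, against 8.97% for the others. On the 359 sides without a common mesa, 60 neighbours (16.7%, 30 pairs seen from both ends) were shared-gain LADs, against 8.09%. The difference was therefore 15.9 points over all sides and 8.62 points where no mesa was shared.

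Runs of neighbours were short. The 244 LADs formed 183 runs, of which 134 held 1 LAD, 37 held 2 and 12 held 3, the largest size. Of the runs of 3, the one with most base pairs was on chromosome X at 44920001 to 53230000 (8.31 Mb in all), and mesas ran across both of its gaps, of 250 to 560 kb. Its first LAD, of 140 kb, was wholly under a canyon, the next had no H3K27me3 mesa, and the last is the longest of all shared-gain LADs, with 21.3% under such mesas.

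The next run, on chromosome 20 at 52360001 to 60030000 (7.67 Mb), had H3K27me3 mesas over 78.7, 34.5 and 0% of its 3 LADs in order. The run on chromosome 16 at 46310001 to 50350000 (4.04 Mb) had 0, 72.1 and 38.8%, and no mesa crossed its gaps. Of all 61 pairs of adjacent shared-gain LADs, 32 were alike in H3K27me3 group (gain, loss or neither), and 3 paired gain with loss. Among the 30 pairs with no common H3K4me3 mesa, 12 were alike. Of the 31 pairs with a common mesa, 20 were alike. Other pairs of adjacent LADs were not counted in this way. It is therefore not known whether adjacent shared-gain LADs were more or less alike than LADs at large.

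The gaps beside shared-gain LADs were a little wider than beside others. Their median was 320 kb (quartiles 160 and 700 kb, 485 sides), against 270 kb (quartiles 130 and 610 kb) for others of similar length and 290 kb for all LADs. A gap between adjacent shared-gain LADs counts from both sides, and the 424 distinct gaps had a median of 335 kb. Gaps of at most 100 kb were 12.8% against 17.6%, and gaps over 1 Mb 16.3% against 13%. The median was larger for shared-gain LADs on 15 of 23 chromosomes and smaller on 8. The difference of 50 kb is 5 steps of the 10000-bp grid on which LADs were drawn and small beside the spread of the gaps. Without chromosome 10, or without chromosome 22, it was 30 kb.

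**Figure D4:**
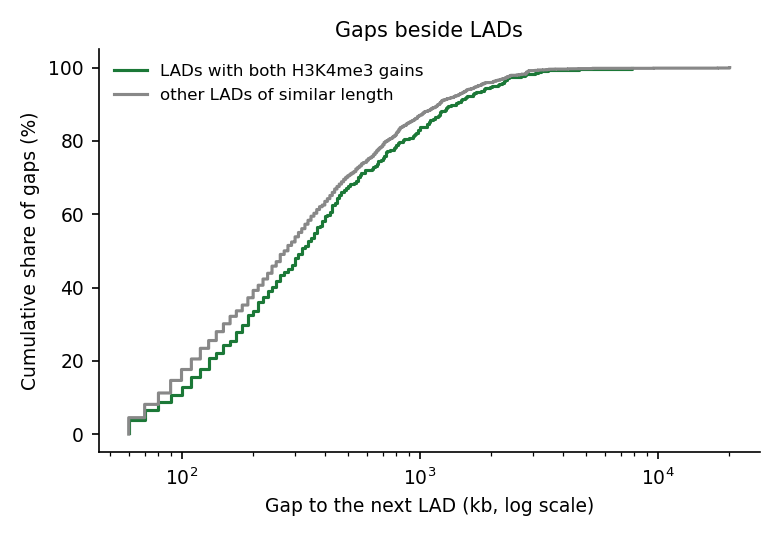
Cumulative share of gaps (%) by width (kb, log scale) beside shared-gain LADs (green) and beside other LADs of similar length (grey). The green curve lies slightly to the right, with medians of 320 and 270 kb, and the curves meet at both ends.

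Next come the shared-gain LADs with the widest gaps on both sides. The first, on chromosome 15 at 67620001 to 67790000, was 170 kb long, with 3140 kb to the LAD on its left and 2630 kb to that on its right, and it lay wholly under a canyon and wholly under both H3K4me3 lists. The second, on chromosome 2 at 65780001 to 66510000 (0.73 Mb), had gaps of 2090 and 2160 kb, and canyons covered all of it. The third, of 1.18 Mb on chromosome 8, had gaps of 3340 and 1810 kb and 4.5% under canyons. In the first pair, lamina contact in growing cells, H3K4me3 gain and H3K27me3 loss were listed for nearly all the same base pairs.

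Gain of H3K4me3 was also listed in the gaps beside shared-gain LADs. Ras-induced mesas covered 41.9% of such a gap on average, against 14% beside others of similar length, and replicative mesas 26.6% against 6.25%. In gaps between neighbouring shared-gain LADs the values were 66.1% and 57.1%, and in gaps towards another kind of LAD 33.7% and 16.3%. H3K27me3 mesas covered 14.8% against 9.42% and canyons 36.3% against 41.5%. The H3K4me3 values again follow in part from mesas that run out of the LAD.

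Shared-gain LADs were present on all 23 chromosomes, in unequal measure. They were 11.8% of a chromosome's LADs in the median, from 5.49% on chromosome 9 (5 of 91) to 23.4% on chromosome X (11 of 47). By base pairs, they made up 16.7 ± 10.2% of a chromosome's LADs (SD over 23 chromosomes), from 5.21% on chromosome 9 to 40.3% on chromosome 19 and 47.1% on chromosome 20. Chromosome X, highest by number, was at 13.7% by base pairs.

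**Figure D5:**
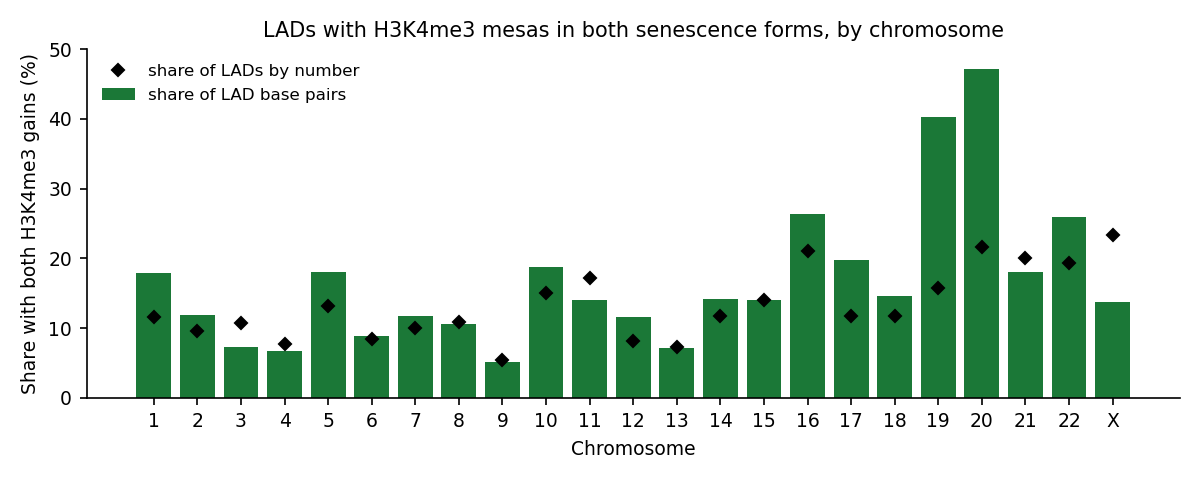
Share (%) of each chromosome's LAD base pairs (bars) and of its LADs by number (diamonds) that were shared-gain LADs, for chromosomes 1 to 22 and X. Chromosomes 19 and 20 stand highest by base pairs, at 40.3% and 47.1%, and chromosome X highest by number, at 23.4%.

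The H3K27me3 groups of shared-gain LADs are given by chromosome beside the shares over all LADs of that chromosome. On chromosome 1, 10 of 22 shared-gain LADs (45.5%) were in the gain group, against 12.1% of its LADs, and 2 (9.09%) in the loss group, against 38.4%. Chromosome 2 had 8 of 16 (50%) in the loss group, near the 53.9% of its LADs, and chromosome 3 also had 8 of 16, against 37.8%. On chromosome 11, 1 of 16 (6.25%) gained and 6 (37.5%) lost, near the 8.6% and 40.9% of its LADs. On chromosome 20 none of 11 was in the loss group, against 21.6% of its LADs, and mean canyon cover was 3.84% against 25.5%. On chromosome X, 6 of 11 gained (54.5%), near the 57.4% of its LADs, and 4 of these were wholly under H3K27me3 mesas. With 4 to 22 shared-gain LADs on a chromosome, single LADs weigh heavily in these shares.

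Shared-gain LADs lay near chromosome ends more often than others. Within 5 Mb of the start of the chromosome or of the last base in any list there were 40 of 244 (16.4%), against 8.36% of others of similar length and 9.77% of all LADs. These 40 had a median length of 895 kb, and H3K27me3 mesas covered 41.3% of them on average, against 32.3% of the rest.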

How the data were processed

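The authors deposited 5 lists of regions, each with chromosome, start and end. The submitters' processing notes name Bowtie 0.12.5 and the build hg18. Per the file headers, LADs come from merged lamin B1 windows, and the H3K4me3 list of replicative senescence is named a combination. How regions were called, at which thresholds, with or without H3, and whether replicates were pooled is not stated in any source at hand. The direction of mesas and canyons is taken from the study's usage, since a header states it only for the replicative H3K4me3 list.

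Starts were read as 0-based and are printed 1-based. Overlapping regions of a list were merged, and cover was counted in base pairs (Python 3.11.15, numpy 2.4.6, pandas 2.3.3). Chromosome Y and the mitochondrial genome, with 6 LADs, were left out by the rule. Other LADs of similar length are all non-members, on any chromosome, with a ratio of lengths of at least 0.8. They were averaged for each member first, so that each member counts once. The comparison was tested on simulated data with a known difference. No test was made, since no file gives values per library. Named regions are the longest members, those at the threshold, those with the most or no H3K27me3 mesa cover, those with the widest gaps, the largest runs and the longest shared intervals. The members, lists and comparisons were chosen with earlier results of these data known. Alternatives are given in the closing section.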

Additional observations from a re-analysis of the deposited data

How the results depend on the processing

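The directions of the 4 differences held under each alternative tried. A cover threshold of 75% left 154 members, widened the difference in median gap to 80 kb and lowered the difference in member neighbours to 9.9 points; counting only neighbour pairs with no shared mesa gave 8.62 points. Against only those other LADs that meet an H3K4me3 mesa, the difference in canyon cover was -6.39 points in place of -11.4, and that in H3K27me3 mesa cover 11.8 in place of 16.7. No gap was under 60 kb, so joining LADs less than 50 kb apart changed nothing; joining those up to 100 kb apart, added after seeing the data, gave 214 members and a gap difference of 30 kb. The cause of these changes was not tested. Leaving out each of 23 chromosomes in turn gave 222 to 240 members, 15.5 to 18 points for H3K27me3 mesas, -12.2 to -10.4 points for canyons, 30 to 60 kb for the gap and 14.4 to 17.7 points for neighbours. A comparison on the same chromosome could be made for 242 members. No paired analysis was possible because the lists hold no value per replicate, and for the same reason no replicate could be left out; depth is unknown.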
